A study of Mus musculus with 18 samples.

Results

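Complement genes were read in RNAseq data of the dorsal spinal cord of mice with a viral LacZ, HDAC4 wt or HDAC4 3SA transgene. The genes were chosen by name and by role. They were the 3 C1q chains as initiators (C1qa, C1qb, C1qc), C3, C4b and Cfb as effectors, Serping1 as a regulator, and C3ar1 and C5ar1 as anaphylatoxin receptors, 9 genes in all. Of these, 8 had 1 locus of that name in each of the 3 tables, among 34579 loci per table and 18642 gene names found in all 3. No locus was named Cfb.

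All 18 mice were C57BL/6 mice (C57BL/6N in the study's methods) of 3 months, and every group carried a virus, so no group without virus was read. A recombinant adeno-associated virus (rAAV) of serotype 1/2 had been injected on both sides into the dorsal horn at L3–5, at least 3 weeks before. It encoded Flag-tagged LacZ (the control), the unmutated HDAC4 (HDAC4 wt, a class IIa histone deacetylase that moves between nucleus and cytosol) or HDAC4 3SA, a mutant that is always nuclear. Each vector had 3 mice with saline and 3 with Complete Freund's Adjuvant (CFA, which causes a local inflammation) in 1 hindpaw, and tissue was taken after 24 h. The promoter that drives the transgenes is not given in the sources used here. Hdac4 itself was at 7.41 and 7.72 FPKM in LacZ-expressing mice after saline and CFA, at 10.1 and 10.8 FPKM in HDAC4 wt mice, and at 8.86 and 8.81 FPKM in HDAC4 3SA mice. How far reads of the transgene enter this locus is not given.

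FPKM, the unit of all levels below, is fragments per kilobase of exon, corrected for library size, so levels can be compared between genes. The tables give 1 FPKM value per group over its 3 mice and no value per mouse. The spread between mice cannot be computed from such values, so no difference below was tested against it here and no error is given. A gene is called higher or lower where the log2 ratio of the 2 groups, with 0.1 FPKM added to both, is beyond 0.5, which is 1.41-fold, among loci with a mean of at least 0.5 FPKM. Such a call is a statement of size, not of significance. Folds and times are ratios of the FPKM values as given, with nothing added, so for low genes they exceed the fold that the log2 ratio gives. Each vector had its own normalization run, so levels set across vectors are a side-by-side description. In such bulk tissue, more cells of a type and more RNA per cell cannot be told apart.

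Complement is a cascade of plasma and tissue proteins that marks surfaces for removal. C1q binds immune complexes, debris or synapses and, through its proteases C1r and C1s, cleaves C4 and C2 to form an enzyme that cleaves C3. C3 fragments tag the surface for phagocytes, while the small fragments C3a and C5a, the anaphylatoxins, act on receptors of myeloid and other cells. In the central nervous system microglia are the main source of C1q, astrocytes and microglia can make C3 and C4, and C1 inhibitor limits the start of the cascade.

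The 3 C1q genes lie side by side on the minus strand of chromosome 4 (GRCm38), with 3616 bases between the annotated genes C1qb and C1qc and 2851 bases between C1qc and C1qa, and the 3 annotated genes together span 18675 bases. The loci of the tables, which reach beyond the annotation in places, are chr4:136878608-136886318 for C1qb, chr4:136888964-136893064 for C1qc and chr4:136895897-136898814 for C1qa. Each gene has 3 exons. C3 (chr17:57203963-57228135) and C4b (chr17:34726459-34743882) are long genes of 41 exons each, Serping1 (chr2:84765322-84775441) has 8 exons, and C3ar1 (chr6:122846420-122856159) and C5ar1 (chr7:16247200-16259333) have 2 exons each. All of them are on the minus strand, and each locus covers at least 99.9% of the exon bases except that of C5ar1, which holds 81.9%.

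Promoter sequence from RefSeq (GRCm38.p6) matched 5 of the 9 genes, namely C1qb, C1qc, C3, C3ar1 and C5ar1. The C1qb, C1qc and C3 promoters are shown because a searched motif was found in them and because the C1q genes moved together through the groups, as described below. Sequences run 5′ to 3′ on the strand of the gene and end just before the annotated start. The C1qc stretch ends earlier, where the GENCODE transcript begins. Capitals mark the match.

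C1qb, chr4:136886201-136886450, PU.1 core in capitals: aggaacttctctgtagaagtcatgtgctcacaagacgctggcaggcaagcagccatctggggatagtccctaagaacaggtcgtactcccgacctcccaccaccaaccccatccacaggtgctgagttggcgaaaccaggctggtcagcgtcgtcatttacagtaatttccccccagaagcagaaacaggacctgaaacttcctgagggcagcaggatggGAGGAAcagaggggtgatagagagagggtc

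C1qc, chr4:136893066-136893164, PU.1 core in capitals on the opposite strand: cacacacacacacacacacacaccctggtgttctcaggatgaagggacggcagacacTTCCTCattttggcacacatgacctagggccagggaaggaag

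C3, chr17:57228137-57228386, C/EBP motif in capitals on the opposite strand: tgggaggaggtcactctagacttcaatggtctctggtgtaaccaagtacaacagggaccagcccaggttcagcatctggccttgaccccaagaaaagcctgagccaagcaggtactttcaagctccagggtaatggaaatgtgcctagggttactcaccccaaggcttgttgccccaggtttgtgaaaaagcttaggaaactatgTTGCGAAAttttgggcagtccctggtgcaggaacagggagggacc

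In the whole 250 bases before the RefSeq start of each gene, not only in the stretches printed, 4 motifs were searched on both strands. The core motif of PU.1, a factor of myeloid cells, with the letters GAGGAA, was found in C1qb at position -30 from the start and in C1qc at -193, and in none of the other 3. Of 32851 promoters, 23.3% held it. The C/EBP motif TTNNGCAA was found in C3 at -45, and in none of the other 4, and 9.56% of all promoters held it. The interferon-stimulated response element (GAAA, any 2 bases and GAAA again), held by 2.98% of promoters, and the gamma-activated site TTCNNNGAA, held by 7.02%, were found in none of the 5. These are matches of letters and were not tied to a level.

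C1qa, C1qb and C1qc encode the chains of C1q, and all of them were far higher in both HDAC4 groups than in LacZ-expressing mice. C1qa was at 37.5 FPKM in LacZ saline, 49.9 in LacZ CFA, 360 in HDAC4 wt saline, 486 in HDAC4 wt CFA, 254 in HDAC4 3SA saline and 500 in HDAC4 3SA CFA mice. In the same order of groups, C1qb was at 13.6, 19.0, 111, 143, 78.0 and 160 FPKM. C1qc was at 14.02, 19.6, 123, 160, 89.4 and 185 FPKM. For every chain both LacZ groups were lowest and HDAC4 3SA mice with CFA were highest, and the highest group was between 11.7 and 13.3 times the lowest. The chains kept similar proportions, since C1qa was 2.62 to 3.40 times C1qb and C1qc was 1.03 to 1.15 times C1qb over the 6 groups. C1qa over C1qb was lower in the LacZ groups, at 2.75 and 2.62, than in the HDAC4 groups, at 3.12 or more.

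After CFA, the C1q chains were higher in each vector, and the size differed. In LacZ-expressing mice the log2 ratios of CFA over saline were 0.41 for C1qa and 0.48 for both C1qb and C1qc, just inside the threshold. HDAC4 wt mice had 0.43, 0.37 and 0.38, also inside it. HDAC4 3SA mice had 0.98, 1.04 and 1.05, so that levels after CFA were 1.97 to 2.07 times those after saline. In FPKM, the C1qa level was higher after CFA by 246 with HDAC4 3SA, by 126 with HDAC4 wt and by 12.3 with LacZ. The log2 ratio in HDAC4 3SA mice exceeded that in LacZ-expressing mice by 0.56 to 0.57 and that in HDAC4 wt mice by 0.54 to 0.67 for the 3 chains. These differences between ratios have no test.

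**Figure D1:**
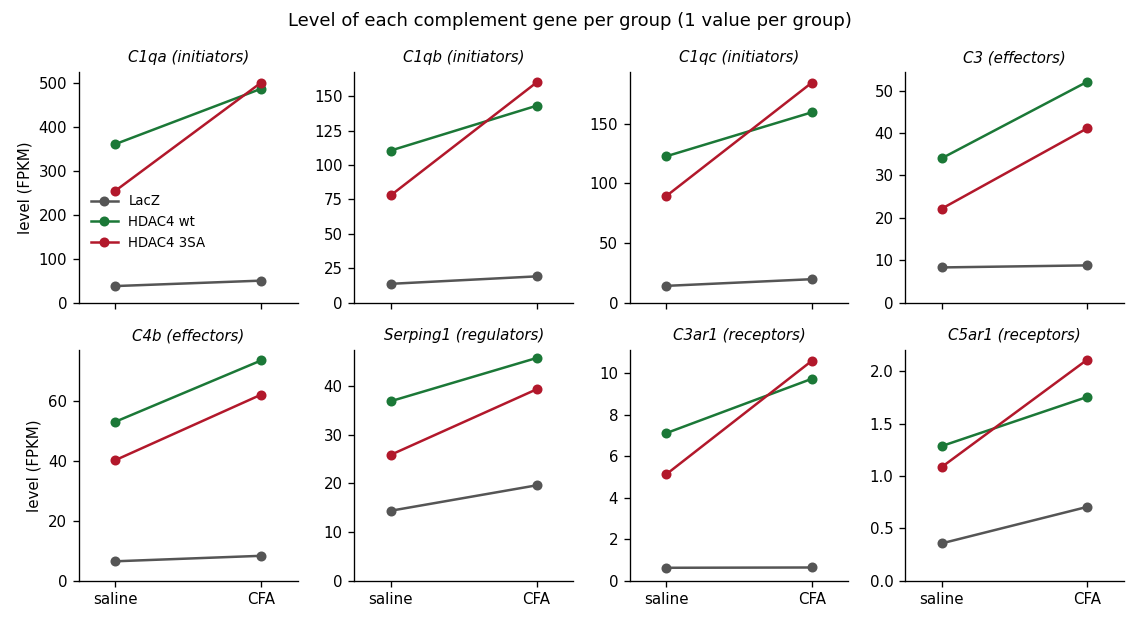
Level of each of the 8 genes in FPKM (vertical axis, linear from 0) after saline and CFA, with 1 line per vector. Each point is 1 value for a group of 3 mice and has no error bar, since no values per mouse are given. The LacZ line lies lowest in each panel, and the HDAC4 3SA line starts below the HDAC4 wt line in each and ends above it for the C1q chains, C3ar1 and C5ar1.

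C3 is the protein on which the pathways meet, and C4b encodes complement C4, which C1s cleaves. C3 was at 8.29 FPKM in LacZ saline, 8.77 in LacZ CFA, 34.0 in HDAC4 wt saline, 52.1 in HDAC4 wt CFA, 22.1 in HDAC4 3SA saline and 41.1 in HDAC4 3SA CFA mice. C4b, in the same order, was at 6.45, 8.28, 53.2, 73.7, 40.3 and 62.3 FPKM. Unlike the C1q chains, both effectors were highest in HDAC4 wt mice with CFA. C3 was close between both LacZ groups, with a log2 ratio of 0.08, and was called higher after CFA in HDAC4 wt mice at 0.61 and in HDAC4 3SA mice at 0.89. C4b had log2 ratios of 0.36, 0.47 and 0.63 in LacZ, HDAC4 wt and HDAC4 3SA mice. The C3 level was 1.29 and 1.06 times that of C4b in LacZ-expressing mice after saline and CFA, and 0.549 to 0.707 times in the 4 HDAC4 groups, so the order of the effectors turned between the vectors.

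C4b has a near-identical copy, C4a, and reads can be shared between the pair. The locus named C4a holds a short stretch of that gene, chr17:34814727-34815356, where C4a was read at 0.544 to 4.33 FPKM, which was 0.059 to 0.128 times the level of C4b. The values of C4b are thus uncertain to the extent that the authors' mapping split such reads.

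Cfb encodes factor B, the protease of the alternative pathway, and could not be read on its own. The gene (chr17:34856374-34862518) lies within the merged region chr17:34836898-34882097, to which the tables give 4 loci, named Dxo, Nelfe, Skiv2l, and C2 with Gm20547. The locus named C2 with Gm20547 was at 1.11 and 1.44 FPKM in LacZ, 6.21 and 7.88 FPKM in HDAC4 wt, and 2.99 and 6.32 FPKM in HDAC4 3SA mice after saline and CFA. The CFA level was 1.30, 1.27 and 2.11 times the saline level in these vectors. These reads cannot be assigned to Cfb, and the gene is left out of every count.

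Serping1 encodes C1 inhibitor, which blocks C1r and C1s. It was at 14.4 FPKM in LacZ saline, 19.6 in LacZ CFA, 36.9 in HDAC4 wt saline, 45.8 in HDAC4 wt CFA, 25.9 in HDAC4 3SA saline and 39.4 in HDAC4 3SA CFA mice. Of the 8 genes it had the narrowest range, with the highest group at 3.19 times the lowest. The log2 ratios of CFA over saline were 0.45, 0.31 and 0.60 in LacZ, HDAC4 wt and HDAC4 3SA mice. Serping1 stood level with C1qc in LacZ-expressing mice, at 1.03 and 0.999 times its FPKM after saline and CFA. In the HDAC4 groups it was at 0.301 and 0.287 times C1qc in HDAC4 wt and at 0.290 and 0.213 times in HDAC4 3SA mice.

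C3ar1, the receptor of C3a, was low in LacZ-expressing mice. It was at 0.615 FPKM in LacZ saline, 0.629 in LacZ CFA, 7.11 in HDAC4 wt saline, 9.73 in HDAC4 wt CFA, 5.12 in HDAC4 3SA saline and 10.6 in HDAC4 3SA CFA mice, the widest range of the 8 genes at 17.2 times. Its log2 ratios of CFA over saline were 0.03, 0.45 and 1.04. C5ar1, the receptor of C5a, was at 0.355, 0.705, 1.29, 1.76, 1.08 and 2.11 FPKM in the same order of groups, the lowest of the 8 genes in every group except LacZ CFA, where C3ar1 was lower. Its log2 ratios were 0.82, 0.42 and 0.90 in LacZ, HDAC4 wt and HDAC4 3SA mice, and the LacZ value compares levels under 1 FPKM. With 1 FPKM added in place of 0.1 the values were 0.33, 0.27 and 0.58, so the LacZ value was inside the threshold. C3ar1 was 1.73 and 0.893 times C5ar1 in LacZ-expressing mice and 4.72 to 5.54 times in the HDAC4 groups.

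Counted over the roles, CFA against saline was called higher for 1 of 8 genes in LacZ-expressing mice (C5ar1), where 5.14% of all 21437 loci read were called higher. For HDAC4 wt it was 1 of 8 (C3), beside 10.7% of all loci. In HDAC4 3SA mice it was 8 of 8, beside 11.3% of all loci. In LacZ-expressing, HDAC4 wt and HDAC4 3SA mice the median log2 ratio over these 8 was 0.43, 0.43 and 0.94, while the median of all loci was 0.00, 0.01 and 0.01. In each vector all 8 were above 0. By role, HDAC4 3SA mice had a median of 1.04 for the initiators, 0.76 for the effectors, 0.60 for the regulator and 0.97 for the receptors. In HDAC4 wt mice the order was another, with 0.38, 0.54, 0.31 and 0.44, and LacZ-expressing mice had 0.48, 0.22, 0.45 and 0.43.

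**Figure D2:**
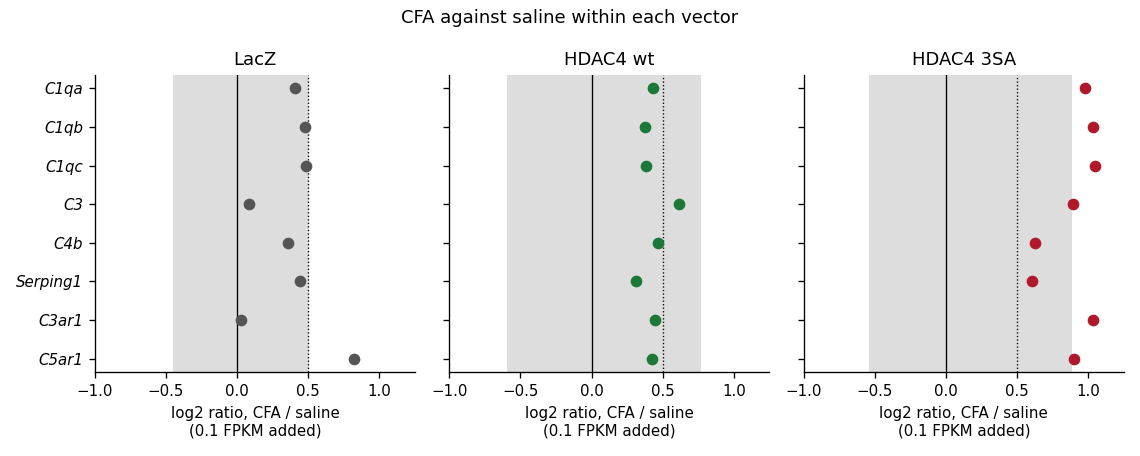
Log2 ratio of the CFA over the saline level (horizontal axis, 0.1 FPKM added) for the 8 genes in each vector. Points are single values per gene, the grey band holds the middle 90% of all loci with a mean of at least 0.5 FPKM, the solid line marks 0 and the dotted line the threshold of 0.5. In LacZ and HDAC4 wt mice 1 point each lies past the dotted line, and in HDAC4 3SA mice all 8 do.

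Between the HDAC4 vectors and LacZ in saline mice, each of the 8 genes differed by more than it did with CFA in any vector. All 8 were called higher in HDAC4 wt than in LacZ-expressing mice, 2.57-fold (Serping1) to 11.6-fold (C3ar1) with a median of 8.18-fold, where 16.1% of all loci were called higher. The fold of C3ar1 rests on 0.615 FPKM in LacZ saline mice. With 1 FPKM added in place of 0.1, its log2 ratio was 2.33 in place of 3.33, below those of C4b (2.86) and the C1q chains (2.93 to 3.23), and that of C5ar1 was 0.75 in place of 1.61. In HDAC4 3SA mice all 8 were called higher than in LacZ-expressing mice, 1.80-fold to 8.32-fold for the same 2 genes with a median of 5.99-fold, beside 13.3% of all loci. The C1q chains were 8.11-fold to 9.60-fold higher in HDAC4 wt and 5.72-fold to 6.77-fold higher in HDAC4 3SA mice. In CFA mice all 8 were again called higher in HDAC4 wt (15.6% of all loci) and in HDAC4 3SA mice (18.1%) than in LacZ-expressing mice, by medians of 7.83-fold and 7.96-fold.

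The HDAC4 vectors differed from each other mainly after saline. Among saline mice, all 8 genes had lower levels with HDAC4 3SA than with HDAC4 wt, at 0.650 (C3) to 0.844 (C5ar1) times the level. Of these, 4 were called lower, namely C1qa, C1qb, C3 and Serping1, and 0 higher, beside 6.98% and 5.16% of all loci. The calls of C1qa, C1qb and Serping1 sat at the threshold, with log2 ratios of -0.50, -0.50 and -0.51, and those of C1qb and Serping1 ended with 1 FPKM added. After CFA, 0 of 8 were called in either direction, beside 7.45% of all loci higher and 10.1% lower, and levels in HDAC4 3SA mice were 0.789 (C3) to 1.20 (C5ar1) times those in HDAC4 wt mice. The larger ratio of CFA over saline in HDAC4 3SA mice thus came with a lower saline level, and with a CFA level within the threshold of that in HDAC4 wt mice.

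Seen as an order of levels, all 8 genes went from LacZ saline through LacZ CFA, HDAC4 3SA saline and HDAC4 wt saline to the HDAC4 groups with CFA. HDAC4 3SA mice with CFA were highest for the C1q chains, C3ar1 and C5ar1, and HDAC4 wt mice with CFA for C3, C4b and Serping1. Whether neighbours in this order differ beyond the spread between mice was not tested here.

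Markers of microglia moved with these genes. In saline mice 9 of 12 microglial genes were called higher in HDAC4 wt than in LacZ-expressing mice (median log2 ratio 1.64), and 9 of 12 in HDAC4 3SA mice (1.35), beside 16.1% and 13.3% of all loci. Their summed level was 141 and 146 FPKM in LacZ, 518 and 613 FPKM in HDAC4 wt, and 423 and 743 FPKM in HDAC4 3SA mice after saline and CFA, and none was at 0. The list was uneven. Trem2 and Tyrobp, a phagocyte receptor and its adaptor, had log2 ratios of 3.11 and 3.23 in HDAC4 wt over LacZ saline mice, close to C1qa at 3.26. P2ry12, Sall1 and Olfml3, genes of resting microglia, had 0.32, 0.28 and -0.07.

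With CFA, 7 of 12 microglial genes were called higher in HDAC4 3SA mice and 0 in either other vector, with medians of 0.62 for HDAC4 3SA, 0.04 for LacZ and 0.22 for HDAC4 wt. The shares of all loci were 11.3%, 5.14% and 10.7% in that order. Relative to LacZ saline mice, the geometric mean of the C1q chains was 1.37 in LacZ CFA, 8.76 in HDAC4 wt saline, 11.5 in HDAC4 wt CFA, 6.25 in HDAC4 3SA saline and 12.7 in HDAC4 3SA CFA mice. The geometric mean of the 12 microglial genes was 1.02, 2.86, 3.31, 2.44 and 3.71 on the same scale. C1q per microglial level was therefore 1.35, 3.06, 3.48, 2.56 and 3.41 times that of LacZ saline mice, or 1.33, 2.39, 2.66, 2.09 and 2.41 times with the sum of the markers, which the most abundant ones lead. By either measure C1q stood further above LacZ saline mice than the pooled microglial markers did in each of the 5 groups. This did not hold for each marker. In HDAC4 wt saline mice Tyrobp was 9.46 and Trem2 8.90 times the LacZ saline level, above C1q at 8.76. In HDAC4 3SA saline mice they were at 7.17 and 6.67 times, above C1q at 6.25. The other listed markers were below C1q in both of these groups. The part of microglial number in the C1q level was not tested.

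**Figure D3:**
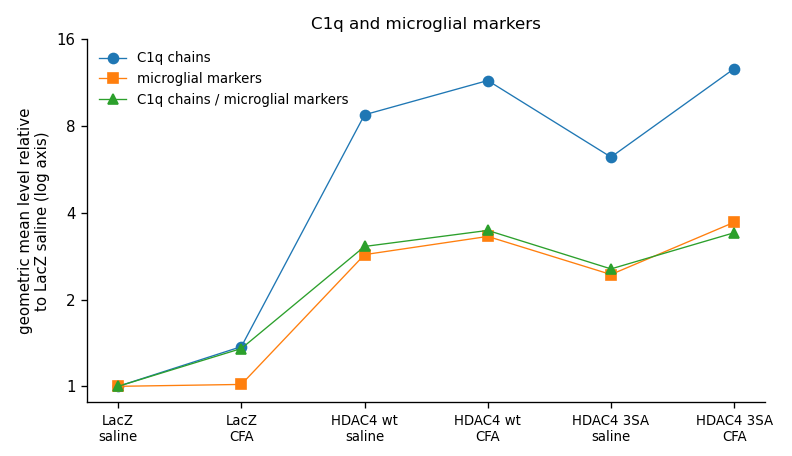
Geometric mean of the 3 C1q chains, of 12 microglial markers, and the ratio of both (vertical axis, log scale, relative to LacZ saline mice at 1) in the 6 groups. Points are single values, and lines only join points of a kind. The C1q points reach 12.7 and the marker points 3.71 in HDAC4 3SA mice with CFA.

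**Figure D4:**
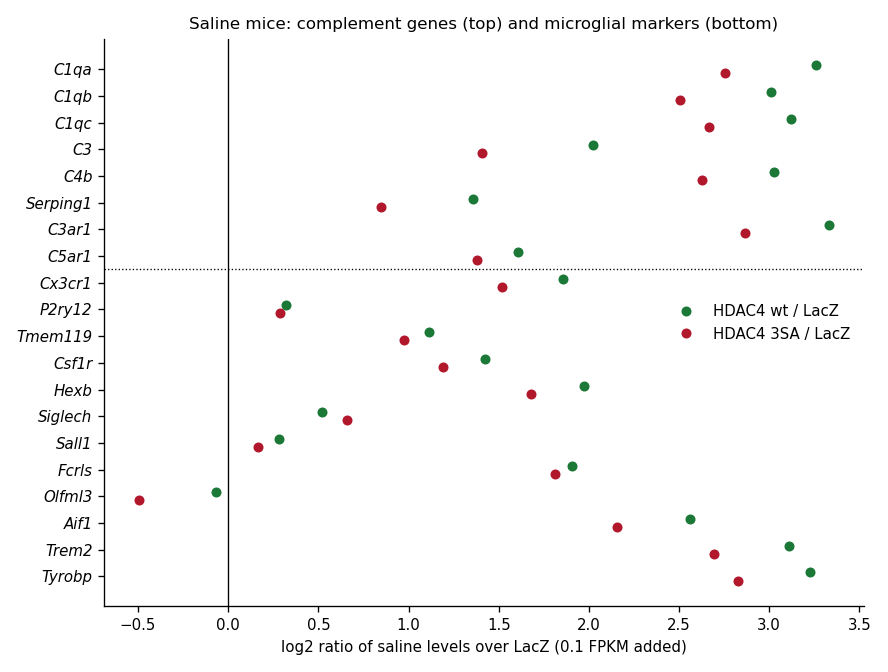
Log2 ratio of saline levels over LacZ (horizontal axis, 0.1 FPKM added) for the 8 complement genes, above the dotted line, and 12 microglial markers, below it, in HDAC4 wt and HDAC4 3SA mice. Points are single values. All 8 complement genes lie above 0 for both vectors, and the markers run from about -0.50 (Olfml3) to 3.23 (Tyrobp).

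Other myeloid and interferon markers also differed. The summed level of 4 monocyte genes was 1.11 and 4.18 FPKM in LacZ, 54.6 and 56.0 FPKM in HDAC4 wt, and 33.2 and 47.2 FPKM in HDAC4 3SA mice after saline and CFA, most of it from Ly6c2 in the HDAC4 groups. That of 8 interferon response genes was 12.1 and 19.2, 162 and 228, and 125 and 263 FPKM. Interferon genes called higher with CFA were 8 of 8 with HDAC4 3SA, 3 of 8 with HDAC4 wt and 5 of 6 read with LacZ, beside the same shares of all loci. The 7 neutrophil genes went another way, with sums of 9.96 and 99.96 FPKM in LacZ, 36.6 and 26.7 FPKM in HDAC4 wt, and 54.9 and 35.8 FPKM in HDAC4 3SA mice. Of 7 genes of border macrophages, 4 were called higher in HDAC4 wt than in LacZ saline mice (Mrc1, Pf4, Cbr2 and Ms4a7), beside 16.1% of all loci, and 2 of 6 read in HDAC4 3SA over LacZ saline mice, beside 13.3%. Mrc1 was at 1.66 FPKM in LacZ saline and 3.04 FPKM in HDAC4 wt saline mice, and Pf4 at 1.98 and 3.42 FPKM. Ms4a7 went from 0.515 FPKM in LacZ saline to 19.4 FPKM in HDAC4 wt saline mice, while Cd163 was at 0.785 and 1.09 FPKM and Lyve1 at 0.598 and 0.432 FPKM.

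For other cell types, astrocyte sums were 879 to 891 FPKM in LacZ and 1322 to 1644 FPKM in the HDAC4 groups, where Gfap was at 389 FPKM in LacZ saline and 807 FPKM in HDAC4 wt saline mice. Of 6 astrocyte genes 3 were above LacZ saline in HDAC4 wt saline mice, while Slc1a2 was at 191 and 159 FPKM, Slc1a3 at 38.4 and 27.2 FPKM and Gja1 at 119 and 102 FPKM in LacZ and HDAC4 wt saline mice. All 8 dorsal horn markers were present in every group, with sums of 164 to 262 FPKM, lowest in HDAC4 3SA mice with CFA. The 4 motor neuron genes summed to 16.4 and 21.8 FPKM in LacZ, 7.22 and 17.3 FPKM in HDAC4 wt, and 12.95 and 32.0 FPKM in HDAC4 3SA mice after saline and CFA. The 5 Schwann cell genes summed to 981 and 1514 FPKM in LacZ, 990 and 977 FPKM in HDAC4 wt, and 1353 and 842 FPKM in HDAC4 3SA mice. Neuronal sums were 1846 and 1775 FPKM in LacZ and 1176 to 1394 FPKM in the HDAC4 groups. Snap25 carried most of this, at 1227 FPKM in LacZ saline and 795 FPKM in HDAC4 wt saline mice. Tubb3 was at 247 and 172 FPKM and Stmn2 at 214 and 154 FPKM in these groups. Syt1 was at 86.2 and 90.8 FPKM, Rbfox3 at 71.6 and 68.0 FPKM and Nefm at 0.549 and 0.658 FPKM. Of these 6 genes 2 were called lower there (Snap25 and Tubb3), beside 12.9% of all loci. The sums of oligodendrocytes (602 to 777), endothelial cells (45.8 to 61.0) and fibroblasts (125 to 172) were less far apart. The 2 hepatocyte genes summed to at most 3.85 FPKM, and the 2 red blood cell genes to 141 and 260 FPKM in LacZ, 187 and 203 FPKM in HDAC4 wt, and 347 and 394 FPKM in HDAC4 3SA mice. The part of these markers in the complement levels was not tested.

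Of 49 other genes of the system that were listed, 35 had a locus. With CFA, 1 of 28 read was called higher in LacZ-expressing mice (C1ra), 1 of 30 in HDAC4 wt (C5ar2) and 8 of 29 in HDAC4 3SA mice, beside 5.14%, 10.7% and 11.3% of all loci. Called lower were 2, 1 and 1 of them, beside 4.37%, 6.74% and 5.92% of all loci. Their median log2 ratios were 0.07, 0.21 and 0.21. In saline mice 11 of 29 were called higher in HDAC4 wt than in LacZ-expressing mice, and 8 of 28 in HDAC4 3SA mice, beside 16.1% and 13.3% of all loci.

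By role, the proteases of C1 went with C1q. C1ra was at 0.452 and 0.694 FPKM in LacZ, 2.17 and 3.01 FPKM in HDAC4 wt, and 1.56 and 2.70 FPKM in HDAC4 3SA mice after saline and CFA. C1s1 was at 2.26 and 2.93, 5.88 and 7.16, and 4.52 and 7.25 FPKM. Both were below the C1q chains in every group. C2, cleaved after C4 by C1s, was read here from the locus that bears its name alone, chr17:34893937-34897295. Its log2 ratios of CFA over saline were -0.16, 0.42 and 0.18 in LacZ, HDAC4 wt and HDAC4 3SA mice. The locus named C2 with Gm20547, given above for Cfb, had 0.35, 0.34 and 1.06 in the same order. How reads of C2 were split between these loci is not given, so the ratios of C2 are uncertain.

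Among the receptors, the subunits of the phagocyte receptors for C3 fragments stood out in size. Itgax was at 0.323 and 0.411 FPKM in LacZ, 15.8 and 19.9 FPKM in HDAC4 wt, and 11.6 and 25.9 FPKM in HDAC4 3SA mice. Itgb2, the chain that Itgam and Itgax share, was at 2.52 and 3.41, 22.6 and 29.3, and 16.6 and 35.7 FPKM. Itgam was at 4.68 and 6.33, 16.5 and 20.6, and 14.5 and 26.8 FPKM. With CFA in HDAC4 3SA mice, Itgam, Itgax and Itgb2 had log2 ratios of 0.88, 1.15 and 1.10. C5ar2, the other C5a receptor, whose annotated gene lies 2588 bases from that of C5ar1, was at 0.240 to 0.874 FPKM.

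The start of the lectin pathway, the membrane regulators and the neural proteins with CUB and Sushi domains were read as well. In saline mice, 0 of 4 lectin pathway genes and 0 of 5 membrane regulators were called in HDAC4 wt over LacZ, nor in HDAC4 3SA over LacZ mice. With so few genes this is near the shares of all loci, 16.1% higher and 12.9% lower for HDAC4 wt and 13.3% higher for HDAC4 3SA. In CFA mice, Cr1l was called higher over LacZ in both HDAC4 wt and HDAC4 3SA mice (log2 ratios 0.51 and 0.54) and Masp2, whose locus is a short stretch at chr4:148602792-148603137, in HDAC4 3SA mice (0.86). Fcna was called lower there in HDAC4 wt mice (-0.70), as were 8.53% of all loci. Between the HDAC4 vectors after CFA, Masp2 and Fcna were called higher with HDAC4 3SA than with HDAC4 wt, with log2 ratios of 1.01 and 1.07. They were the 2 of 30 other complement genes called higher there, beside 7.45% of all loci. C2, from the locus named C2 alone, and Csmd1 were called lower (-0.69 and -0.58), beside 10.1%. After saline 0 of 30 were called higher and 1 lower in that comparison, beside 5.16% and 6.98% of all loci. With CFA in HDAC4 3SA mice, Fcna, a ficolin, was the 1 lectin pathway gene called, at 0.574 and 1.11 FPKM. Cd59a, which blocks the membrane attack complex, was at 12.2 to 15.7 FPKM in the 6 groups, and Cd55, which speeds the decay of the C3 convertases, at 4.96 to 6.65 FPKM. Of the 6 neural proteins 0 were called higher in these comparisons, and Csmd1, known as an inhibitor of complement, was called lower, with a log2 ratio of -0.58 in HDAC4 wt over LacZ saline mice, as were 12.9% of all loci, and of -0.60 with CFA in HDAC4 3SA mice.

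Clu, which encodes the soluble regulator clusterin, was abundant at 364 to 541 FPKM, and its log2 ratios of CFA over saline were 0.05, 0.25 and 0.30 in LacZ, HDAC4 wt and HDAC4 3SA mice. Of the terminal pathway, Hc, which encodes C5, was at 0.157 to 0.572 FPKM, C6 (listed at 0 in both LacZ groups) at up to 0.743 FPKM and C7 at 0.076 to 0.565 FPKM. C8g was at 4.83 to 10.2 FPKM and was the 1 gene of that pathway that passed the level filter for CFA against saline. Cfp, properdin of the alternative pathway, was at 0.458 to 0.944 FPKM.

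**Figure D5:**
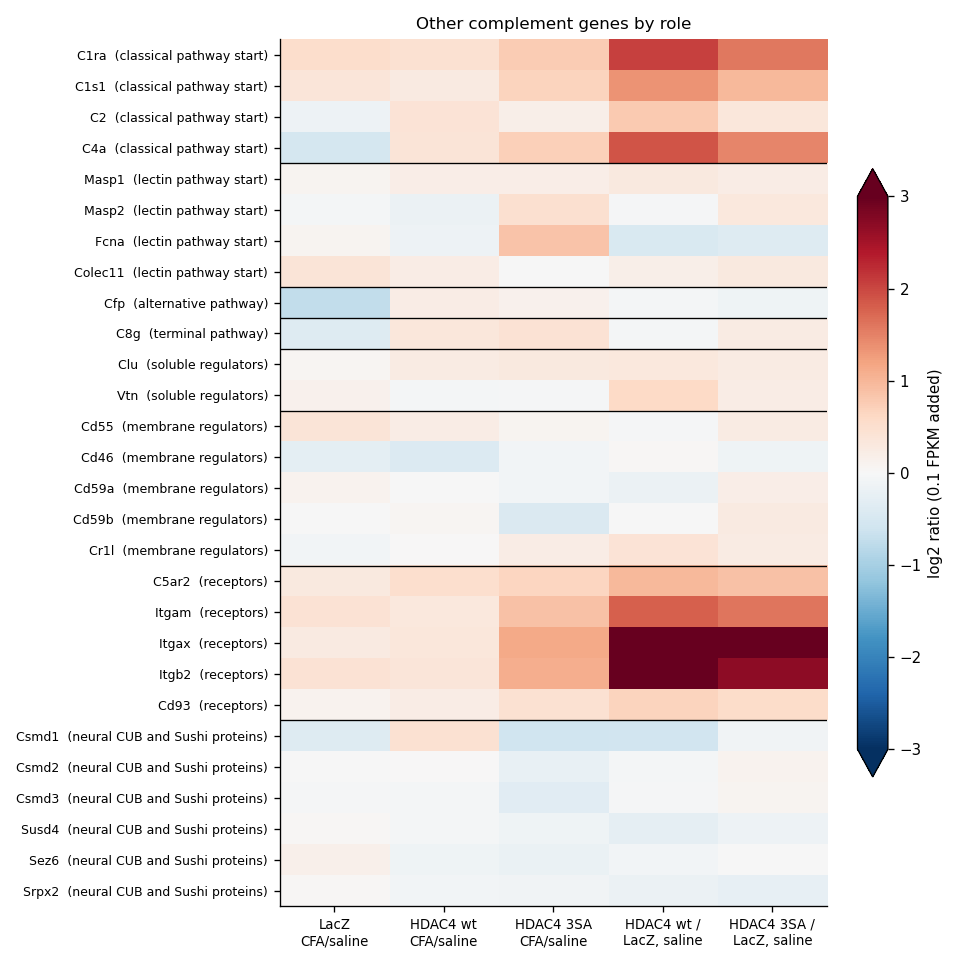
Log2 ratios (colour, 0.1 FPKM added, colours saturate at 3 in either direction) of other complement genes that averaged 0.5 FPKM or more over the 6 groups, in rows grouped by role, for 5 comparisons in columns. Each cell is 1 value. Red rows gather at the start of the classical pathway and at the receptors, and the membrane regulators and neural proteins stay pale but for Csmd1.

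Genes whose levels followed a complement gene most closely over the 6 groups were sought among genes that averaged 5 FPKM or more, 9922 for the C1q chains and 9924 for C3 and C4b. Likeness was the root mean square difference of log2 levels centred over the 6 groups. For the mean of the C1q chains the nearest was Itgb2, at 0.050, then Icam1, an adhesion molecule that binds integrins with the Itgb2 chain (0.059), Apobec1 (0.079), Myo1f (0.080) and Blnk (0.081). For C3 it was Serpina3n, at 0.098, a gene that reactive astrocytes are known to express, with 28.3 and 30.3 FPKM in LacZ, 111 and 163 FPKM in HDAC4 wt, and 82.7 and 156 FPKM in HDAC4 3SA mice. Apoc1 (0.118), the interferon regulatory factor Irf1 (0.130), Sp100 (0.133) and Xaf1 (0.135) came next. For C4b it was B2m, at 0.055, the light chain of MHC class I, with 50.1 and 69.0, 433 and 561, and 306 and 514 FPKM in the same order, followed by H2-D1 (0.104), Adgre1 (0.106), Icam1 (0.116) and Irf8 (0.130). These are likenesses over 6 values, given as a description.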

How the data were processed

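RNAseq was made from dorsal spinal tissue (L3–5) of 18 mice, 3 per group. The authors built strand-specific libraries of poly-A RNA, sequenced single-end reads of 50 bp, aligned them to GRCm38 (TopHat 2.0.14, Bowtie 2.2.9, annotation of Ensembl release 85), merged transcripts with Cuffmerge and ran Cuffdiff 2.0.0 for CFA against saline in each vector. They deposited 1 table per vector. The deposited FPKM values are 1 estimate per group, with no counts, no value per mouse and no depth per library, so the error of a single value is not given and no test was run here, although the design had foreseen tests for the case of values per mouse. The tables also hold the authors' log2 fold changes, test statistics, p-values and q-values, which were not used.

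Log2 ratios were computed from FPKM with 0.1 added, and folds from FPKM with nothing added (Python 3.11.15, numpy 2.4.6, pandas 2.3.3). Loci with a failed estimate (11, 14 and 6 in the LacZ, HDAC4 wt and HDAC4 3SA tables) were left out. The places of 386 loci do not overlap between tables. Such loci were left out of the shares of all loci between vectors, and stayed in those within a vector. Listed genes were not filtered by place. Locus starts were raised by 1, since 972 of 17784 uniquely named loci start 1 base below the GENCODE M21 gene and 311 at it. Exons are from GENCODE M21. The code was tested on simulated ratios. The members, the gene lists and the rule for nearest genes (the 5 with the smallest difference for the C1q chains, C3 and C4b) were chosen with earlier results of these data known. Alternatives were 0 or 1 FPKM added, centring on loci of at least 5 FPKM, sums over loci of a name, another threshold and another minimum level. Values of single listed genes that were left out are not reported here. Genes outside these lists and rules are named only for the locus over Cfb and for Hdac4.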

Additional observations from a re-analysis of the deposited data

How the results depend on the processing

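No paired analysis was possible because the tables hold 1 value per group, and for the same reason no mouse could be left out in turn. Of 251 values recomputed under an alternative, 233 kept their side of the threshold or stayed within 1.5 times. Most of these were ratios of single genes, of which 189 kept their side and 3 did not. Of the counts, medians and C1q levels per microglial level, 44 were kept and 15 moved. With a log2 ratio beyond 1, members higher after CFA numbered 3 with HDAC4 3SA and 0 in either other vector, and other complement genes 2 with HDAC4 3SA and 0 in either other vector, beside 3.94% (HDAC4 3SA), 1.31% (LacZ) and 2.86% (HDAC4 wt) of all loci. With a mean of at least 5 FPKM, members in LacZ-expressing mice numbered 0 of 6, and other complement genes 0 of 11 in LacZ, 0 of 15 in HDAC4 wt and 4 of 15 with HDAC4 3SA, beside 2.26%, 6.1% and 7.4% of all loci. With 1 FPKM added, members in LacZ-expressing mice numbered 0, and other complement genes 0 in LacZ and 0 in HDAC4 wt mice, beside 2.39% and 5.68% of all loci. With no minimum level, other complement genes numbered 2 of 35 in LacZ, 3 of 35 in HDAC4 wt and 12 of 35 in HDAC4 3SA mice. The share of all loci was not computed at that setting, so these counts are not read further. The 8 of 8 members in HDAC4 3SA mice held with 0 or 1 FPKM added and with centring, and were 7 of 7 read at 5 FPKM. Sums over loci and no minimum level could not change this count or a member's ratio, since each member had 1 locus and passed the minimum. Centring moved a ratio by at most 0.024. No ratio reversed. C1q per microglial level was lower with the sum of the markers in each group, by less than 1.5 times. The depth per library is unknown, so it cannot be said which low levels, such as those of C5ar1, C6 or Hc, rest on few reads.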
